A study of Mus musculus with 2 samples.

Results

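Expression of 10 genes of antigen presentation on major histocompatibility complex (MHC) class I was followed in RNA-seq tables of whole mouse uterus. They were taken by symbol from tables of 20634 genes, and all 10 were found. They are the class I heavy chain genes H2-K1 and H2-D1, the light chain gene B2m, the peptide transporter genes Tap1 and Tap2, the inducible proteasome subunit genes Psmb8, Psmb9 and Psmb10, the ubiquitin-like gene Ubd (FAT10), and the class I transactivator gene Nlrc5. The members were selected on their FPKM values and ratios in these same libraries, so their levels and ratios are described and not tested. The libraries were 1 labelled Mettl3 ed/ed and 1 labelled Mettl3 f/f. Each held RNA of whole uterus, labelled as mixed cell types, from females 6 to 8 weeks old that were mated with fertile males and killed on gestational day 4, with the vaginal plug counted as day 1. The labels do not say how the genotype letters are to be read, which cells or promoter any recombination used, the mouse strain, or how many animals a library holds. Mettl3 encodes the catalytic subunit of the enzyme that writes N6-methyladenosine on RNA, and the comparison asked how expression in the uterus differed between the genotypes.

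Class I molecules show peptides from inside the cell to T cells and are read by receptors of natural killer cells. Proteins are cut by the proteasome, whose catalytic subunits can be exchanged for inducible ones to form the immunoproteasome. The peptides are carried into the endoplasmic reticulum by the TAP transporter, a dimer of Tap1 and Tap2, and are loaded onto a heavy chain bound to beta-2-microglobulin, the product of B2m. FAT10 is a small modifier that marks proteins for the proteasome, and it is encoded within the MHC. NLRC5 is a nuclear regulator that acts at promoters of class I genes. Interferons and NF-kappaB are known inducers of many of these genes, and at implantation the uterus holds both natural killer cells and macrophages.

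The stretch around the start site is shown for the members whose values the account turns on, as RefSeq gives it for GRCm38.p6, from 250 bases before the start site to 50 after it, in the 5′ to 3′ direction of the gene. The window of Ubd (chr17:37193642-37193941, plus strand) is shown because Ubd differed most between the libraries, and that of B2m (chr2:122147437-122147736, plus strand) because B2m went the other way from its heavy chains. H2-K1 (chr17:34000284-34000583, minus strand, the more downstream of 2 windows) and H2-D1 (chr17:35262844-35263143, plus strand) are set side by side as heavy chain genes. Capitals mark matches to GGGNNTTNCC, a form of the NF-kappaB site, and to GAAANNGAAA or GAANNGAAA, 2 forms of the interferon-stimulated response element, on either strand.
Ubd: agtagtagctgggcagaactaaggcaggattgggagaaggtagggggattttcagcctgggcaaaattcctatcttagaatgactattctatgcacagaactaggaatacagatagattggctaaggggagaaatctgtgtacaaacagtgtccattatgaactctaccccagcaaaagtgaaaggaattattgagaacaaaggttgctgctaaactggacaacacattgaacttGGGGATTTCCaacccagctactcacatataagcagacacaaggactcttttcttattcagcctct
B2m: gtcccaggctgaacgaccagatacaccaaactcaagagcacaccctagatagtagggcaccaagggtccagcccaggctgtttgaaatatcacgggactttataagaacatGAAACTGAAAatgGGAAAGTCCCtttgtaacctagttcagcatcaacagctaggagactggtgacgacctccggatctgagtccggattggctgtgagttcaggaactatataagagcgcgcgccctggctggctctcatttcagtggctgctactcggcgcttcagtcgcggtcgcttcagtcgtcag
H2-K1: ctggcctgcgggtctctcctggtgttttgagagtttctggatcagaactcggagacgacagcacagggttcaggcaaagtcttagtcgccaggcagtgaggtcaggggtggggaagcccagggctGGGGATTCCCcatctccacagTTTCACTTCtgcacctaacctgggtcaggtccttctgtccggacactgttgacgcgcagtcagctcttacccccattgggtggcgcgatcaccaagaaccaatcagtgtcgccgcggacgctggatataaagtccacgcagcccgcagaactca
H2-D1: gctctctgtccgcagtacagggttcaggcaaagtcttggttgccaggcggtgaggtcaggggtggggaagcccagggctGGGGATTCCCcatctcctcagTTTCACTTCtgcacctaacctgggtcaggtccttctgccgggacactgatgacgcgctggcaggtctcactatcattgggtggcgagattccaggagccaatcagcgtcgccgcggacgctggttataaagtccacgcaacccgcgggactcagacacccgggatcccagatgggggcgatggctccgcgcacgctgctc

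The NF-kappaB form was found in 4 of the 8 members that have a window, namely Ubd, B2m, H2-K1 and H2-D1, against 4.79% of all 32851 windows. Relative to the start site, its match began at position -15 in Ubd, -126 in B2m, -125 in H2-K1 and -171 in H2-D1. The longer interferon form was found in B2m alone of the 8, against 3.44% of all windows, and the shorter in H2-K1 and H2-D1, against 7.52%. No overlap with another marked match occurs in these windows. Psmb8 held TTCNNNGAA, the palindromic form bound by STAT factors, which 8.30% of all windows hold. The windows of H2-K1 and H2-D1 aligned over 242 columns, of which 217 (89.7%) were identical. A match is a description of letters in the window, not a site or a cause.

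Tap1 and Psmb9 lie head to head, with RefSeq start sites 226 bases apart, and their windows share 275 bases. GENCODE starts Psmb9 further upstream, so that the gene bounds given further on overlap by 212 bases. The window of Tap1 (chr17:34187306-34187605, plus strand) is shown since both genes are read away from it, and capitals mark the 225 bases between the RefSeq start sites.
Tap1 and Psmb9: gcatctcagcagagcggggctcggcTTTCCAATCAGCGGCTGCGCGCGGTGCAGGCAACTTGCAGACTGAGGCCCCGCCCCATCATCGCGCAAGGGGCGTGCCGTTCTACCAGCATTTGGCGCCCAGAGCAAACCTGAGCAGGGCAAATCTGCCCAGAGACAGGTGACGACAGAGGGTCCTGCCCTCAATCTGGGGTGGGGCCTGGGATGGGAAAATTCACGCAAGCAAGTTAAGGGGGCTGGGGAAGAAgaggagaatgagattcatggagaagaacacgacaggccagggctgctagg
None of the 4 searched forms above was found in it.

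Between the libraries, 9 of the 10 members had a higher level in ed/ed than in f/f and 1, B2m, had a lower level. At 1.5-fold, 3 members were higher (Ubd, H2-K1 and Psmb8) and B2m was lower, where 7.04% of expressed genes were higher and 23.4% lower by that size. Ubd alone passed 2-fold, the size at which a gene was called different, since 1 library per genotype allows no test. Of all 12165 expressed genes, meaning those reaching 1 FPKM in ed/ed or f/f, 2.68% were called higher in ed/ed, 6.22% were called lower, and 29.6% had any higher value. FPKM counts fragments relative to transcript length and to all mapped fragments. Ratios are log2 of (FPKM + 1) in ed/ed over (FPKM + 1) in f/f. The median log2 ratio over the 10 members was 0.43, and 0.42 over the 9 without Ubd, against -0.26 over all expressed genes (SD 0.58 across genes). All 10 passed the filter on low values, Ubd through ed/ed only. Other ways of scaling the libraries moved the ratio of every member up, by 0.06 to 0.36, and none changed the sign of a member.

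**Figure D1:**
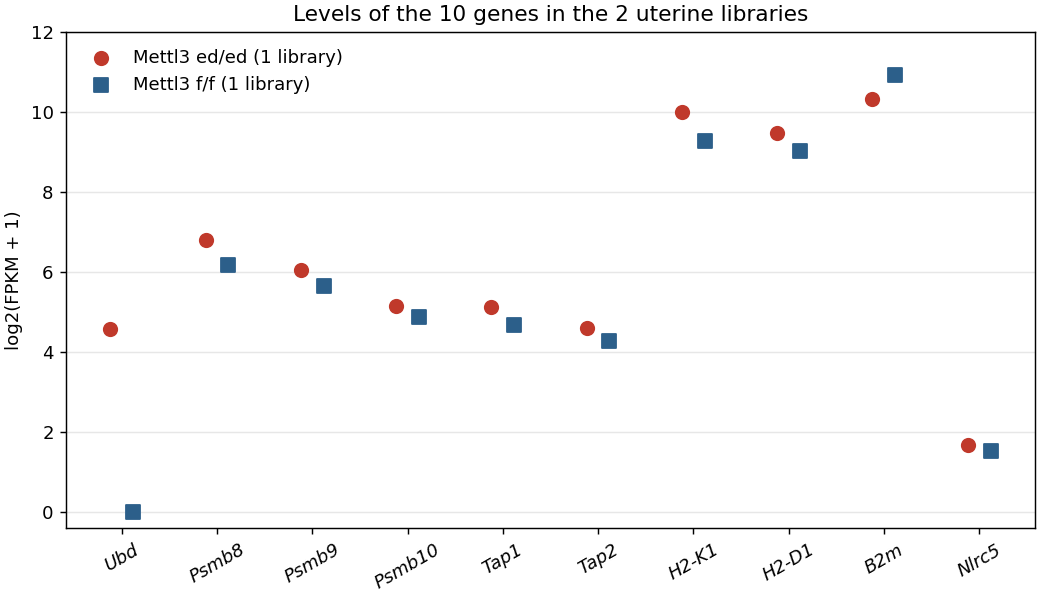
Level of each of the 10 genes as log2(FPKM + 1) in the Mettl3 ed/ed library (circles) and the Mettl3 f/f library (squares), 1 library each, so there are no error bars. Ubd is at 23 FPKM in ed/ed and listed at 0 in f/f, B2m is the member that is lower in ed/ed, and the other 8 are slightly higher in ed/ed.

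Depth and labels bear on all of these values. The steps between low FPKM values put the depth at about 17200000 fragments for ed/ed and 18200000 for f/f, and listed FPKM summed to 491403 and 522049. Mettl3 itself was at 10.2 FPKM in the library labelled ed/ed and 10.6 in the library labelled f/f, a ratio of 0.963 with a 95% counting interval of 0.823 to 1.13. The level of the targeted gene did not separate the libraries, so every direction rests on the labels. A single value per gene does not show which exons were read, and whole uterus mixes cell types. Whether Mettl3 was altered in either library was therefore not tested. Counting intervals here come from the estimated fragments behind both values by the exact binomial method. They cover counting error only and not the spread between animals, which cannot be estimated. Uterine markers were present, with the epithelial keratin gene Krt8 at 307 FPKM in ed/ed and 430 in f/f, epithelial Epcam at 194 and 131, and myometrial Myh11 at 34.6 and 27.7. Markers of adipocytes (Adipoq, Plin1 and Cidec) and of blastocysts (Pou5f1, Nanog and Cdx2) were listed at 0 in both libraries.

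The heavy chain genes were among the most abundant transcripts of the uterus. H2-K1 (ENSMUSG00000061232, chromosome 17, 33996017 to 34000347 on GRCm38) was at 1033 FPKM in ed/ed and 623 in f/f. Its ratio of FPKM was 1.66 (counting interval 1.63 to 1.69), and its rank among all genes by level was 77 in ed/ed and 119 in f/f. H2-D1 (ENSMUSG00000073411, chromosome 17, 35262730 to 35267499) was at 718 FPKM in ed/ed and 524 in f/f, a ratio of 1.37 (1.34 to 1.40). Their summed level was 1751 FPKM in ed/ed and 1147 in f/f. The ratio of H2-K1 to H2-D1 within a library, which no scaling between libraries can alter, was 1.44 in ed/ed and 1.19 in f/f. Heavy chain genes resemble each other and their alleles differ between strains, which the labels do not give. Of all stretches of 50 bases in the longest coding transcript, 8.79% for H2-K1 and 14.3% for H2-D1 recurred in transcripts of other genes, so part of their reads is uncertain.

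B2m differed from its partners. It was at 1282 FPKM in ed/ed and 1937 in f/f (ENSMUSG00000060802, chromosome 2, 122147686 to 122153083), a ratio of 0.662 (0.648 to 0.676). Its log2 ratio of -0.60 lay at percentile 22.8 of all expressed genes and 0.34 below their median. Set against the summed heavy chains within each library, B2m was at 0.732 in ed/ed and 1.69 in f/f, so the light chain exceeded these 2 heavy chains in f/f and not in ed/ed. None of the stretches of 50 bases in B2m recurred in another gene. Its transcript is short, 860 nt, and with the trend of ratios on transcript length removed its log2 ratio was -0.57.

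The transporter genes lie in the class II region of chromosome 17 and had similar ratios. Tap1 (ENSMUSG00000037321, 34187553 to 34197225) was at 34.0 FPKM in ed/ed and 24.7 in f/f, a ratio of 1.38 (counting interval 1.28 to 1.49). Tap2 (ENSMUSG00000024339, 34203527 to 34216321) was at 23.2 FPKM in ed/ed and 18.4 in f/f, a ratio of 1.26 (1.16 to 1.37). The intervals of the pair overlap. Tap1 exceeded Tap2 by 1.47 times in ed/ed and by 1.34 times in f/f.

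The 3 inducible catalytic subunits of the proteasome were each higher in ed/ed, and none by 2-fold. Psmb8 (LMP7; ENSMUSG00000024338, chromosome 17, 34197721 to 34201454), which replaces Psmb5, was at 111 FPKM in ed/ed and 71.6 in f/f, a ratio of 1.55 (1.46 to 1.65). Psmb9 (LMP2; ENSMUSG00000096727, chromosome 17, 34181987 to 34187764), which replaces Psmb6, was at 65.9 FPKM in ed/ed and 49.0 in f/f, a ratio of 1.35 (1.24 to 1.47). Psmb10 (MECL-1; ENSMUSG00000031897, chromosome 8, 105935735 to 105938444), which replaces Psmb7, was at 34.8 FPKM in ed/ed and 28.6 in f/f, a ratio of 1.22 (1.08 to 1.37). In both libraries Psmb8 was the most abundant of the 3 and Psmb10 the least.

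Of the 3 constitutive counterparts, 1 was higher and 2 were lower in ed/ed, and none by 2-fold. Psmb5 was at 235 FPKM in ed/ed and 192 in f/f, Psmb6 at 95.9 and 117, and Psmb7 at 80.4 and 126. The inducible subunit therefore made up a larger share of each pair in ed/ed, a quantity that scaling cannot alter. Psmb8 was 32.1% of its pair with Psmb5 in ed/ed and 27.2% in f/f. Psmb9 was 40.7% of its pair with Psmb6 in ed/ed and 29.5% in f/f. Psmb10 was 30.2% of its pair with Psmb7 in ed/ed and 18.5% in f/f, the largest difference of the 3 pairs at 11.7 percentage points, although Psmb10 had the smallest ratio. Summed over the 3 pairs, the inducible share was 34.0% in ed/ed and 25.5% in f/f.

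**Figure D2:**
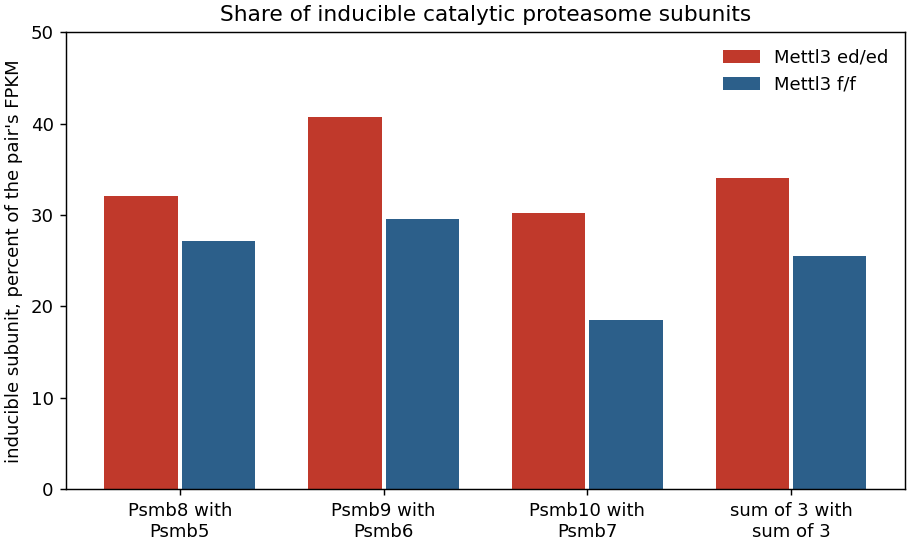
Share of the inducible subunit in the summed FPKM of each inducible and constitutive pair, in percent, for Mettl3 ed/ed (left bars) and Mettl3 f/f (right bars), 1 library each and no error bars. The share is larger in ed/ed in each of the 3 pairs and in their sum, 34.0% against 25.5%.

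Among the other subunits of the 20S core, 11 of 11 lay within 2-fold, with a median log2 ratio of -0.27, near the -0.26 of all expressed genes. Psma5 had the lowest ratio, at 50.8 FPKM in ed/ed and 79.6 in f/f. Of 9 activator and assembly genes 0 passed 2-fold, with a median of -0.21. The activator PA28 is built from Psme1, at 158 FPKM in each library, and Psme2, at 105 FPKM in ed/ed and 175 in f/f, so their ratio was 1.503 in ed/ed and 0.899 in f/f. Pomp, a chaperone of proteasome assembly, was at 230 FPKM in ed/ed and 181 in f/f.

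Ubd separated the libraries more than any other member. Ubd (ENSMUSG00000035186, chromosome 17, 37193892 to 37196095, 2 exons) was at 23 FPKM in ed/ed, about 269 fragments at the estimated depth, and was listed at 0 in f/f. A value of 0 gives no fold. In f/f 1 fragment of Ubd would be worth 0.0806 FPKM, and 3 fragments, the upper limit for a count of 0, would be 0.242 FPKM. In all, 32 genes were listed at 0 in f/f and at 1 FPKM or more in ed/ed, with a median of 1.78 FPKM in ed/ed. Ubd had the highest value of the 32. In the other direction, 37 genes were listed at 0 in ed/ed and at 1 FPKM or more in f/f, the highest at 11.8 FPKM. The transcript shares no stretch of 50 bases with another gene.

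The machinery that attaches and receives FAT10 lay within 2-fold. Uba6, the activating enzyme of FAT10, was at 2.16 FPKM in ed/ed and 3.05 in f/f. Ube2z, its conjugating enzyme, was at 44.0 and 43.2 FPKM, and Nub1, which binds FAT10 and the proteasome, at 27.5 and 42.9 FPKM in ed/ed and f/f. Of 12 other ubiquitin-like modifiers 1 passed 2-fold, Isg15, at 164 FPKM in ed/ed and 41.5 in f/f. Its deconjugating enzyme gene Usp18 was at 14.7 FPKM in ed/ed and 9.60 in f/f, and the other 3 genes of that cycle, Uba7, Ube2l6 and Herc6, had log2 ratios of -0.07, -0.06 and -0.07.

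Nlrc5 was the least abundant member in ed/ed. Nlrc5 (ENSMUSG00000074151, chromosome 8, 94434356 to 94527272) was at 2.196 FPKM in ed/ed and 1.90 in f/f. That was a ratio of 1.16 (0.971 to 1.38), and a difference was not detectable at this depth. Nlrc5 was the member whose ratio depended most on transcript length among the 9 expressed in both libraries, since its transcript of 7578 nt is the longest: its log2 ratio was 0.14, and 0.55 with the length trend removed.

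**Figure D3:**
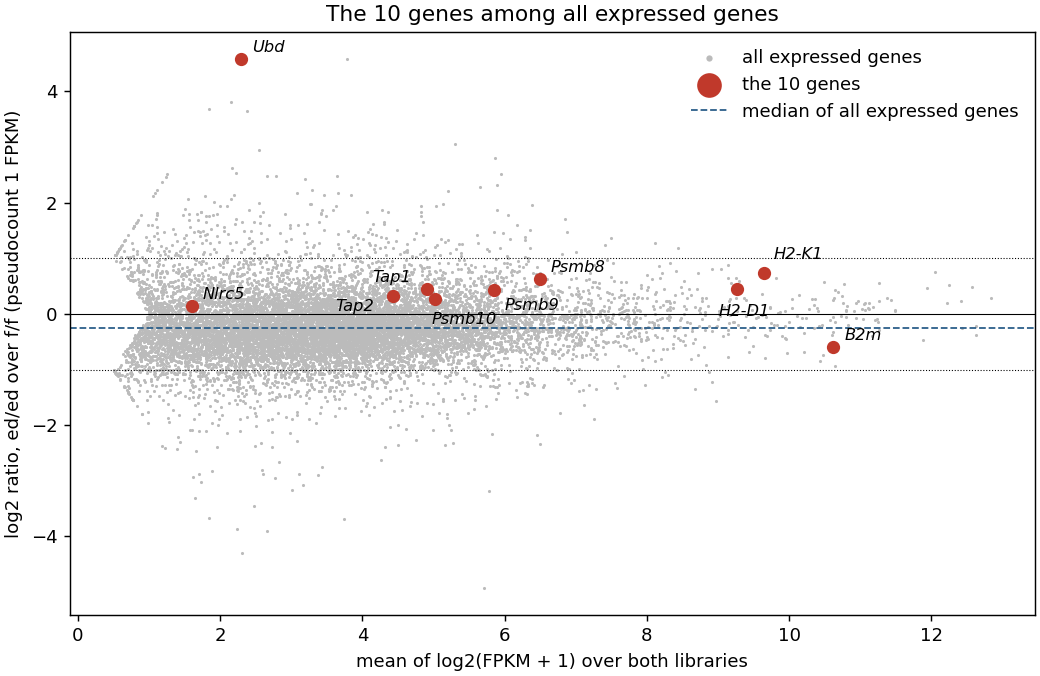
Log2 ratio of ed/ed over f/f (FPKM + 1) against the mean of log2(FPKM + 1) over both libraries, for all 12165 expressed genes (grey) and the 10 members (labelled). The dashed line is the median of all expressed genes at -0.26 and the dotted lines mark 2-fold. The ratio of Ubd depends on the pseudocount because its f/f value is 0.

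The remaining steps of class I loading lay within 2-fold. Of 6 genes of peptide loading and trimming 0 passed 2-fold, with a median of -0.28. Tapbp, the tapasin that bridges TAP and the heavy chain, was at 157 FPKM in ed/ed and 175 in f/f. Tapbpl, its relative in peptide editing, was at 5.41 FPKM in ed/ed and 6.70 in f/f. Calr, a lectin chaperone of the loading complex, was at 170 FPKM in ed/ed and 256 in f/f, and Canx, the membrane-bound calnexin, at 57.0 and 69.8. Pdia3, the disulfide isomerase of the complex, was at 209 FPKM in ed/ed and 201 in f/f, and Erap1, which trims peptides, at 14.9 and 19.7.

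Other class I genes differed in both directions. Of 20 listed, 17 were matched and 13 were expressed, with 1 called higher, 3 called lower and a median of 0.28. The genes next to H2-D1 were among those with positive ratios. H2-Q7 was at 88.6 FPKM in ed/ed and 46.8 in f/f, H2-Q6 at 61.6 and 32.9, H2-Q4 at 119 and 76.7, and H2-Q1 at 12.8 and 8.21. H2-Q2, the gene called higher, was at 2.59 FPKM in ed/ed and 0.188 in f/f. The share of stretches of 50 bases found in other genes was 34.9% in H2-Q7, 32.0% in H2-Q6 and 24.3% in H2-Q4, so reads may be split among them and the heavy chain members. H2-Q1, H2-Q4, H2-Q6 and H2-Q7 were chosen after their values were seen. The 3 called lower were class I-like genes that lie outside the MHC. Cd1d1, which presents lipids, was at 2.60 FPKM in ed/ed and 6.93 in f/f. Mr1, which presents metabolites of microbes, was at 4.91 and 10.8 FPKM, and Fcgrt, the neonatal Fc receptor, at 8.16 and 18.2 FPKM in ed/ed and f/f. Mr1 lay just past the 2-fold rule. The other expressed genes of the list that were lower in ed/ed were H2-T24 and Hfe. H2-T24, on chromosome 17, was at 0.383 FPKM in ed/ed and 1.45 in f/f. Hfe, on chromosome 13, was at 2.23 and 2.84. The products of Cd1d1, Mr1 and Fcgrt pair with beta-2-microglobulin, as do those of H2-K1 and H2-D1. Both heavy chain genes were higher in ed/ed.

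By position, the 10 members fall on 3 chromosomes, with Psmb9, Tap1, Psmb8 and Tap2 next to each other on chromosome 17. Within 5 listed genes on either side of the members were 70 other genes, of which 42 were expressed. Their median log2 ratio was -0.15, with 18 above 0, 1 called higher and 2 called lower. The gene called higher was H2-Q2, and those called lower were Atp6v1g2 near H2-D1, at 2.65 FPKM in ed/ed and 6.40 in f/f, and Pllp near Nlrc5, at 39.1 and 202. Near the Psmb9 to Tap2 block, 4 places from Psmb9, Brd2, a bromodomain gene, was at 46.9 FPKM in ed/ed and 72.0 in f/f. H2-DMb1, directly next to Psmb9, was at 6.92 FPKM in ed/ed and 5.38 in f/f. Around Ubd, the 9 odorant receptor genes from Olfr90 to Olfr98 were listed at 0 in both libraries, and Gabbr1, a subunit gene of the GABA-B receptor, was at 8.74 FPKM in ed/ed and 15.9 in f/f.

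**Figure D4:**
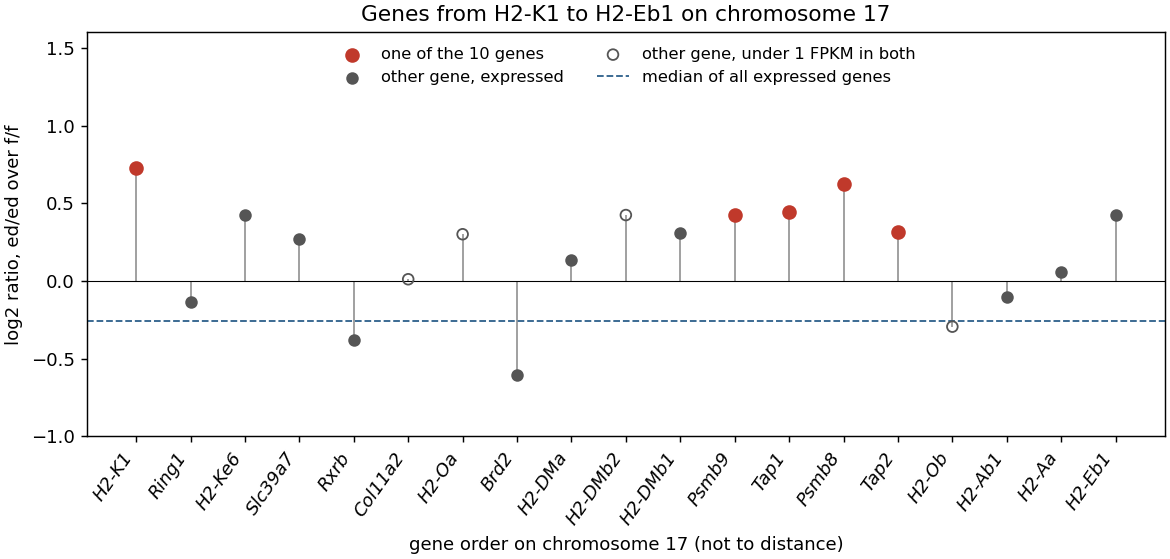
Log2 ratio of ed/ed over f/f (FPKM + 1) for the listed genes from H2-K1 to H2-Eb1 in their order on chromosome 17, with members in red, other expressed genes filled grey and genes under 1 FPKM in both libraries open. The 5 members shown lie between 0.32 and 0.73, Brd2 is the lowest at -0.61, and the dashed line is the median of all expressed genes.

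Class II genes lie in the same region. Of 9 listed, 6 were expressed and 0 passed 2-fold, with a median of 0.10 and a summed level of 213 FPKM in each library. H2-Aa was at 50.2 FPKM in ed/ed and 48.1 in f/f, H2-Ab1 at 43.6 and 47.0, and the invariant chain gene Cd74 at 71.1 and 81.3. H2-Eb1 was at 34.6 FPKM in ed/ed and 25.6 in f/f. The peptide editor genes H2-DMa and H2-DMb1 were at 5.07 and 6.92 FPKM in ed/ed and at 4.54 and 5.38 FPKM in f/f.

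Known regulators of the members were mostly within 2-fold. Of 13 expressed genes of the interferon-gamma receptor and its signal, 0 were called higher and 1 lower, with a median of -0.22. Jak2, a kinase of the receptor, was at 53.3 FPKM in ed/ed and 128 in f/f, the receptor gene Ifngr1 at 13.2 and 21.8, and Jak1 at 23.8 and 38.5. Stat2, which acts with Irf9 below the type I receptor, was at 23.1 FPKM in ed/ed and 11.8 in f/f. Ifng was at 0.0612 FPKM in ed/ed, about 1 fragment, and listed at 0 in f/f. Of 12 expressed partners of Nlrc5 at promoters and NF-kappaB genes 0 passed 2-fold, with a median of -0.18, and Nfkb1 had the lowest ratio at 14.1 FPKM in ed/ed and 18.4 in f/f.

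Some targets of type I interferon had ratios far above those of the members other than Ubd. Of 15 expressed, 5 were called higher and 0 lower, with a median of 0.27, and 4 had a log2 ratio of 0 or below. Oas2, which senses RNA duplexes, was at 28.4 FPKM in ed/ed and 4.29 in f/f, Oasl1 at 20.1 and 3.52, Ifit1 at 54.7 and 13.5, and Rtp4 at 122 and 34.9. Of 3 expressed chemokine and enzyme genes that interferon-gamma induces, 0 were called higher and 1 lower. These were Cd274 (PD-L1), at 1.25 FPKM in ed/ed and 5.64 in f/f, Cxcl10 at 2.63 and 4.50, and Wars at 30.9 and 38.9. The difference between these lists and the members was not tested.

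**Figure D5:**
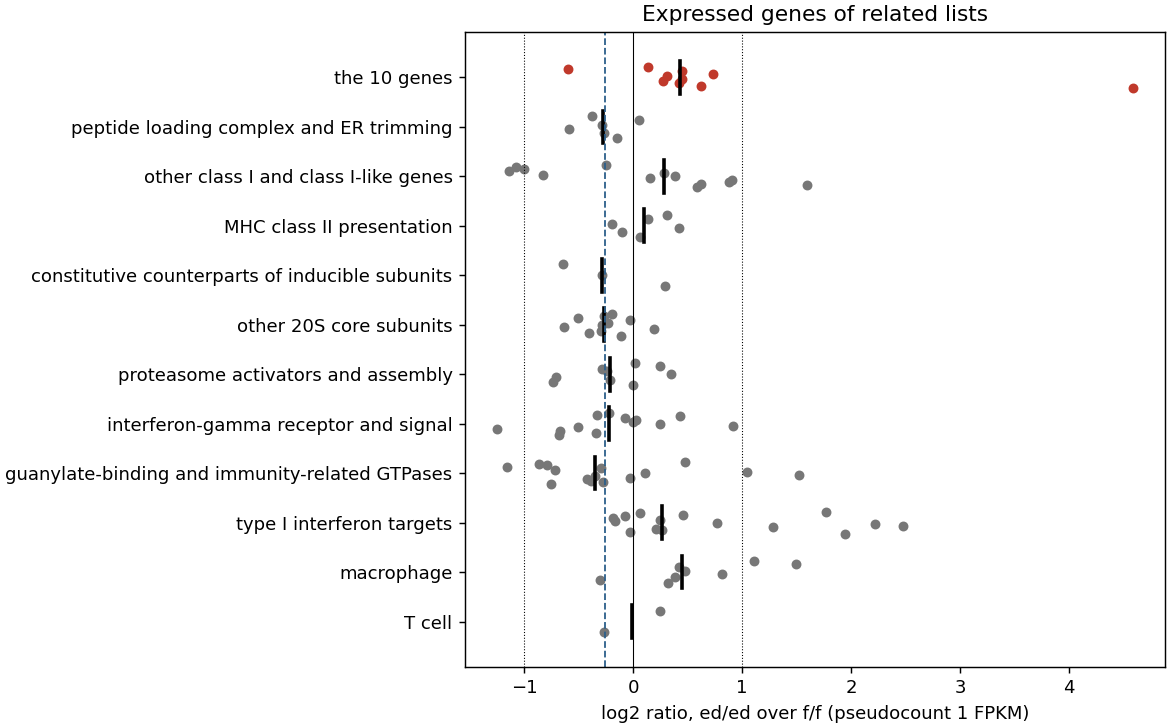
Log2 ratio of ed/ed over f/f (FPKM + 1) for expressed genes of each list (points), with the list median as a black bar, the median of all expressed genes as a dashed line and 2-fold as dotted lines. The 10 members have a median of 0.43, against -0.27 for the other core subunits of the proteasome and -0.28 for peptide loading.

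Of 8 expressed macrophage markers 7 were higher in ed/ed, while T cell, natural killer, dendritic cell and neutrophil markers differed in both directions. All 3 general leukocyte markers were higher in ed/ed, and they summed to 83.3 FPKM in ed/ed and 30.9 in f/f. Of these, Laptm5 was at 63.0 FPKM in ed/ed and 15.7 in f/f, Ptprc (CD45) at 5.88 and 3.65, and Coro1a at 14.4 and 11.5. Of the 8 expressed macrophage markers 2 were called higher, Aif1 at 22.3 FPKM in ed/ed and 7.27 in f/f and Lyz2 at 188.5 and 86.6. Csf1r was lower, at 3.02 FPKM in ed/ed and 3.97 in f/f, and Mrc1, not expressed by the filter, was at 0.657 and 0.669. The list of 9 summed to 349.8 FPKM in ed/ed and 188 in f/f, with Lyz2 the largest part. The 7 matched T cell markers summed to 10.15 FPKM in ed/ed and 9.01 in f/f, and 5 of them stayed under 1 FPKM in both. Of these, Cd3d was at 0.943 FPKM in ed/ed and 0.0872 in f/f, Cd8b1 at 0.379 and 0.309, Cd8a at 0.280 and 0.509, Cd3e at 0.395 and 0.722, and Cd4 at 0.159 and 0.230. The 2 that counted as expressed were Lck, at 6.92 FPKM in ed/ed and 5.66 in f/f, and Cd3g at 1.07 and 1.49. Natural killer and innate lymphoid markers summed to 18.1 FPKM in ed/ed and 16.9 in f/f, with the receptor genes Ncr1 at 2.37 and 0.995 and Klrk1 at 3.53 and 1.42. The granzyme genes Gzma and Gzmb were at 3.60 and 6.61 FPKM in ed/ed and at 4.64 and 7.03 in f/f, and Eomes was at 0.854 and 1.06. Klrb1c was at 0.367 FPKM in ed/ed and 0.817 in f/f, and Prf1 at 0.789 and 0.939. The B cell markers Cd79a and Ms4a1 were listed at 0 in both libraries. Dendritic cell markers summed to 7.41 FPKM in ed/ed and 6.78 in f/f, and neutrophil markers to 3.57 and 4.08. Of these, Cd209a was at 2.84 FPKM in ed/ed and 0.838 in f/f, Zbtb46 at 2.13 and 3.94, Csf3r at 1.33 and 1.04, Ly6g at 0.515 and 1.72, and S100a8 at 0.489 and 1.29. S100a9 was at 1.25 FPKM in ed/ed and listed at 0 in f/f.

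Tissue markers also differed. The 6 stroma markers summed to 322 FPKM in ed/ed and 669 in f/f, and the 5 endothelial markers to 51.6 and 127. The log2 ratios ran from -1.49 (Pdgfra) to -0.73 (Dcn) over Pdgfra, Col3a1, Col1a1, Hand2, Hoxa10 and Dcn, and from -1.72 (Cdh5) to -0.78 (Emcn) over Cdh5, Tek, Pecam1, Kdr and Emcn. The 5 myometrial markers Cnn1, Actg2, Des, Acta2 and Myh11 summed to 541 FPKM in ed/ed and 338 in f/f, with log2 ratios from 0.31 to 1.32, and the 8 epithelial markers to 1381 and 1537. Of the epithelial markers 5 were higher in ed/ed, among them Foxa2 at 4.40 FPKM in ed/ed and 0.924 in f/f. The 3 keratin genes were lower, and Krt19 was at 222 FPKM in ed/ed and 388 in f/f. The part of these differences in the levels of the members was not tested, and in whole uterus more cells of a type and more RNA per cell cannot be told apart. Of 6 expressed genes of class I receptors and their relatives, not all of which bind class I, 0 passed 2-fold. Klrd1, a subunit of an inhibitory natural killer receptor, was at 5.70 FPKM in ed/ed and 4.48 in f/f. Its partner gene Klrc1 was at 1.03 FPKM in ed/ed and 0.567 in f/f, Klra8 at 3.72 and 2.56, and Klra4 at 2.29 and 2.45. The myeloid receptor genes Pirb and Lilrb4a were at 1.89 and 2.70 FPKM in ed/ed and at 0.726 and 1.43 in f/f. The log2 ratio of Pirb was 0.74 with 1 FPKM added to both values, and it is under the 2-fold rule only because of that addition.

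Over all lists, the genes with log2 ratios nearest to the members' median of 0.43 were Itgax, Socs1 and C1qc, at 0.43, 0.44 and 0.42. Likeness was the distance between log2 ratios over 2 libraries, which is 1 value per gene. Socs1, an inhibitor of interferon signalling, was at 11.7 FPKM in ed/ed and 8.36 in f/f. The complement gene C1qc was at 35.05 FPKM in ed/ed and 25.9 in f/f, and the integrin gene Itgax at 1.52 and 0.866.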

How the data were processed

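Total RNA of whole uterus was extracted with TRIzol and made into libraries with an Illumina TruSeq RNA kit, per the labels' protocols. The submitters' processing notes name HISAT2 2.2.1 and Cufflinks 2.2.1 and the builds mm9 and mm10, without saying which build was used. The deposited values, 1 per gene and library, were taken as FPKM made by the authors, since Cufflinks writes FPKM and the values are decimals with sums that differ. The headers name no unit. The annotation, strand and handling of multi-mapping reads are not stated there.

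Computed from them with Python 3.11.15, pandas 2.3.3 and statsmodels 0.14.6 were log2 ratios with a pseudocount of 1 FPKM, among genes that reach 1 FPKM in ed/ed or f/f, called at 2-fold. With 1 library per genotype no p-value was made. Depth came from the spacing of FPKM times transcript length less 250 nt, in genes with 1 transcript (281 in ed/ed and 285 in f/f). It is an estimate that takes these lengths as given, and simulated data built on the same lengths are no check of them. Lengths and gene coordinates came from GENCODE M21 (GRCm38), matched on identifier for 20557 genes, and locate genes, not reads. RefSeq windows were matched by symbol for 8 of the 10 members. The members and 35 lists (245 of 251 entries matched) were chosen with earlier results of these data known. All members were named, with every expressed gene of lists of 6 or fewer, otherwise up to 4 with the largest ratio, defining markers, neighbours past 2-fold and the 3 genes nearest in ratio. Alternatives were pseudocounts of 0.1 and 5 FPKM, no filter or 5 FPKM, 4 scalings, removal of the length trend (lowess, fraction 0.3), a 1.5-fold rule, and leaving out H2-K1 and H2-D1.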

Additional observations from a re-analysis of the deposited data

How the results depend on the processing

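Each member kept the sign of its log2 ratio under all 9 alternatives that gave it a value, with 89 values in all. Nlrc5 gave none at a filter of 5 FPKM. The ratio of Ubd ranged from 2.49 to 7.85 because its f/f value is 0, H2-K1 from 0.73 to 1.09, Psmb8 from 0.60 to 0.98 and B2m from -0.60 to -0.24. The members called higher by 2-fold numbered 1, and 2 (Ubd and H2-K1) when ed/ed was scaled by the median ratio or by the reference genes. The background also rose, from 326 of 12165 expressed genes called higher to 600 of 12268 by the median ratio and 690 of 12290 by the reference genes. Under the 1.5-fold rule 3 were higher (background 7.04%) and 1 lower (background 23.4%). The median of the members, 0.43, was 0.44 and 0.39 with pseudocounts of 0.1 and 5 FPKM, and 0.45 with a filter of 5 FPKM. Scaling gave 0.52 (sum), 0.72 (median ratio), 0.64 (upper quartile) and 0.78 (reference genes). It was 0.61 without the length trend and 0.37 without H2-K1 and H2-D1. The inducible share of Psmb8 was 4.95 percentage points larger in ed/ed, and 8.47 for sums over the 3 pairs. Over all expressed genes, 326 were called higher and 757 lower, so 30.1% of the called genes were higher. The counts were 489 and 1336 with a pseudocount of 0.1, and 112 and 207 with one of 5. They were 600 and 387 (60.8% of the called genes higher) by the median ratio and 506 and 466 (52.1%) by the upper quartile. By the reference genes they were 690 and 339 (67.1%). The length correction gave 522 and 344 (60.3%). No paired analysis was possible because each genotype has 1 library, and no library could be left out.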

Other observations

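The GTPases that interferon-gamma induces, a group not described above, differed in both directions. Of 15 expressed guanylate-binding and immunity-related GTPase genes, 2 were called higher and 1 lower, with a median log2 ratio of -0.35. Irgm1, which regulates the other members of its family, was at 58.8 FPKM in ed/ed and 28.0 in f/f. Gbp8 was at 5.19 FPKM in ed/ed and 1.15 in f/f, Iigp1 at 4.65 and 11.6, and Tgtp2, which has a near-identical copy in Tgtp1, at 4.36 and 8.75. The 14 reference genes had a median log2 ratio of -0.36 and were not uniform, running from -1.67 (Polr2a) to 0.26 (Actb). Polr2a was at 5.02 FPKM in ed/ed and 18.1 in f/f, which was past the 2-fold rule. The oviduct gene Ovgp1 was at 60.8 FPKM in ed/ed and 41.0 in f/f, and the ciliated oviduct marker Foxj1 was listed at 0 in ed/ed and was at 0.487 FPKM in f/f. Ccdc39, another ciliated oviduct marker, was at 0.436 FPKM in ed/ed and 0.804 in f/f.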
